A study of Homo sapiens with 5 samples.

Results

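KLF genes encode Krüppel-like transcription factors, and the mRNAs of 10 of them were followed through RNA immunoprecipitation with CBFB and with hnRNPK in MCF10A cells. The 10 genes, KLF2, KLF3, KLF4, KLF5, KLF6, KLF7, KLF9, KLF10, KLF13 and KLF16, were taken by name from the 56632 gene identifiers in the deposited tables, and all 10 were found. Of these, 9 were among the 11764 genes with a mean FPKM (fragments per kilobase of transcript, scaled to the fragments of the library) of at least 1 over the 5 libraries, and KLF2 was not. KLF7 and KLF5 mRNAs stood highest of the 9 in hnRNPK RIP, and none of the 9 reached 4-fold enrichment in FLAG-CBFB RIP.

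MCF10A is a non-tumorigenic human mammary epithelial line grown with insulin, EGF, hydrocortisone and cholera toxin, and no further treatment was given. RIP recovers the RNA that comes down with a protein, and RIPseq sets that RNA against the input, the RNA of the lysate without an antibody. The groups were the input of cells expressing FLAG-CBFB (1 library), the RIP from those cells with a FLAG antibody (1 library), the input of parental MCF10A cells (1 library) and the RIP from parental cells with an antibody to hnRNPK (2 repeats, which share the 1 parental input). The labels give neither the genetic background nor the promoter of the FLAG-CBFB line, and the study describes its FLAG-tagged lines as stable lines made in CBFB knockout cells. The labels do not say whether the 2 repeats came from separate cultures, so p-values measure only the spread between these 2 libraries. No mock immunoprecipitation was analysed here. The comparison asks which mRNAs each protein is bound to, directly or through a partner.

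KLF proteins carry a set of C2H2 zinc fingers at the C-terminus that bind GC-rich and CACCC elements, and differ mainly in the N-terminal part that recruits coactivators or corepressors. The SP proteins have the same zinc finger domain and belong to the same superfamily. In stratified and glandular epithelium KLF5 is linked to proliferation of basal cells and KLF4 to differentiation. hnRNPK binds C-rich single-stranded RNA through its KH domains, whereas CBFB is the non-DNA-binding partner of the RUNX proteins and has no RNA-binding domain of its own.

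Total expected counts ranged from 69786576 to 106855647 per library. Transcripts of the mitochondrial genome took 4.27% and 11.2% of the counts in both inputs, 62.2% in FLAG-CBFB RIP, and 84.5% and 86.6% in RIPs of hnRNPK, so that the raw FPKM of most nuclear genes fell from input to RIP. The log2(FPKM + 1) ratio of RIP to input averaged -1.34 over the 11764 genes for FLAG-CBFB, and -2.61 and -2.68 for the hnRNPK repeats. Each ratio was therefore centred on that mean, and "enrichment" below is the centred log2 ratio, so 0 means the average gene and 2 means 4-fold above it. After centring, the median gene stood at -0.19 in FLAG-CBFB RIP and -0.11 in hnRNPK RIP. All 8 epithelial markers examined passed the expression filter (KRT5, KRT6A, KRT14, KRT17, TP63, CDH1, EPCAM and ITGB4). KRT5 was at 1974 and 1640 FPKM in the inputs, whereas KRT14 was low at 6.78 and 1.81 FPKM. None of the 7 markers of luminal hormone response, blood, endothelium or fibroblasts found in the tables passed the filter.

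Both inputs held 9 of the KLF mRNAs at 4 FPKM or more. KLF5, a factor of basal epithelial proliferation, was present at 61.0 FPKM in the FLAG-CBFB cell input and 51.4 FPKM in parental cells. KLF13, known as a regulator of chemokine transcription in lymphocytes, had 63.5 and 39.0 FPKM. KLF6, a widely expressed factor induced by injury and growth signals, had 52.2 and 39.7 FPKM. These 3 led in both inputs, in a different order in each.

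KLF10, an early response gene of TGF-beta, followed with 39.0 and 16.4 FPKM. The next values were 14.2 and 14.8 FPKM for KLF16, a GC-box-binding repressor, and 14.7 and 7.26 FPKM for KLF3, a repressor that recruits CtBP. KLF7, best known from neuronal development, had 13.4 and 7.90 FPKM. The lowest of the 9 were KLF4, at 5.96 and 7.99 FPKM, and KLF9, a target of the glucocorticoid receptor, at 5.88 and 4.55 FPKM. KLF2, which is known from endothelium and lymphocytes, was at 0.20 and 0.47 FPKM, on 40 and 42 expected counts.

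The inputs themselves differed. Over all analysed genes 9.57% lay more than 2-fold apart between the inputs after centring, and of the KLF mRNAs only KLF10 did, higher in the FLAG-CBFB cells by 1.23 on the log2 scale. KLF3 was next, at 0.95. With 1 input per line, a difference between the lines cannot be told apart from one between libraries.

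**Figure D1:**
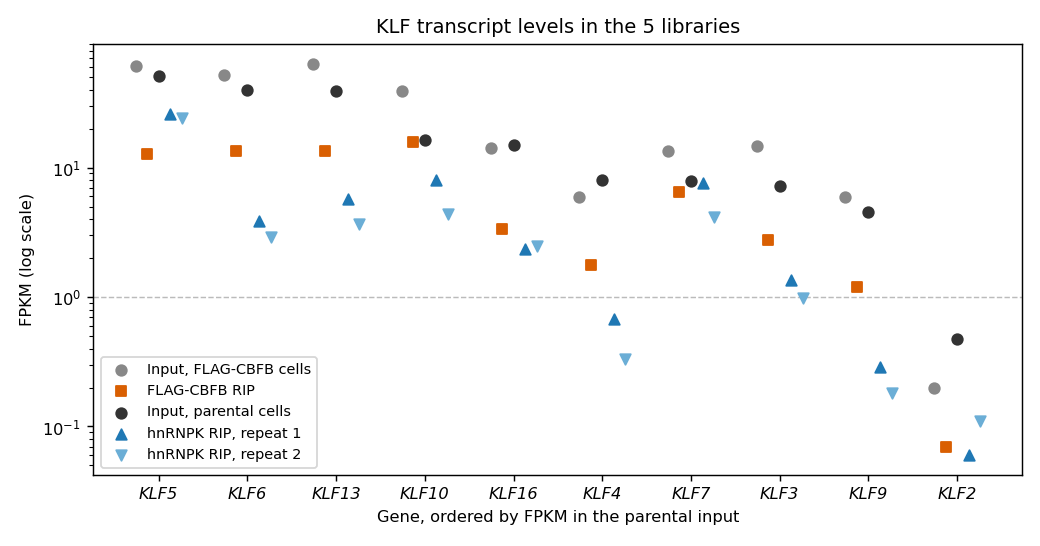
FPKM (log scale) of the 10 KLF mRNAs in each of the 5 libraries, 1 point per library, with genes ordered by the parental input and a dashed line at 1 FPKM. For KLF7 and KLF5 the hnRNPK RIP points lie closest to the parental input point, and KLF2 lies below 1 FPKM in every library.

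In FLAG-CBFB RIP no KLF mRNA reached the 4-fold threshold. Of the 9 analysed members, 0 exceeded 4-fold, where 4.37% of all genes did, and 0 exceeded 2-fold, where 9.27% did. The count above 2-fold changed with the processing: KLF7 exceeded it on log2 CPM with TMM factors (1.05) or DESeq2 size factors (1.09), and KLF7 (1.12) and KLF10 (1.31) did against the parental input. None of the 9 lay below -2, where 0.0935% of genes did, and 2 of them were too weak in the input to do so. Their enrichments ran from -0.83 to 0.40 with a median of -0.45, and 6 of 9 lay below 0, against 64.9% of all genes. No test was run on this comparison, since neither the RIP nor its input has a repeat.

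KLF7 was the highest of the 9, falling from 13.4 FPKM in the input to 6.50 in the RIP, which after centring is an enrichment of 0.40. KLF10 (39.0 to 15.8 FPKM) and KLF4 (5.96 to 1.78 FPKM) followed at 0.08 and 0.02, the position of an average gene. The remaining 6 were KLF9 at -0.31, KLF16 at -0.45, KLF6 at -0.55, KLF3 at -0.72, KLF13 at -0.82 and KLF5 at -0.83. KLF5 stood at percentile 7.6 of all genes and KLF13 at percentile 8.1, so both of these strongly expressed KLF mRNAs stood low with CBFB on the FPKM scale. On log2 CPM with TMM factors KLF5 was at -0.29, level with KLF16, and KLF13 was the lowest at -1.07. Against the parental input KLF13 was at -0.10. The 95% counting error of these values was 0.164 or less on the log2 scale, and it does not cover the spread between immunoprecipitations, which is unknown here. KLF2 rested on 9 counts in the RIP, at 0.07 FPKM.

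RUNX1 mRNA, which the study uses as a bound transcript, had an enrichment of 2.13 in the same RIP, from 14.1 FPKM in the input to 25.1. Every analysed KLF mRNA lay below it, and the nearest, KLF7, was at -1.72 relative to RUNX1 on the log2 scale. GAPDH, the unbound reference, was at -0.18, within the range of the KLF mRNAs.

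In hnRNPK RIP the KLF mRNAs spread out. Enrichments, as the mean of both repeats, ran from -0.57 for KLF6 to 2.23 for KLF7, with a median of 0.47. Of the 9, 1 (KLF7) exceeded 4-fold, against 8.20% of all genes, and 3 (KLF7, KLF5 and KLF10) exceeded 2-fold, against 20.9%. In both repeats separately, 0 of the 9 exceeded 4-fold, where 7.31% of genes did, and 6 lay above 0, where 44.4% did. Among these 6 is KLF9, which with the pseudocount could not fall below 0, as 21.8% of all genes could not. At the low end, 0 of the 9 were below -2, where 6.24% of genes were, but with the pseudocount of 1 FPKM 6 of the 9 could not have fallen that far, and nothing is read from this 0.

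KLF7 had 7.90 FPKM in the parental input against 7.66 and 4.12 FPKM in the RIPs, so that the first repeat held 97.0% of the input level and the second 52.2%. Its enrichment was 2.57 and 1.88 (mean 2.23 ± 0.49, SD, n = 2), at percentile 93.0 of all genes. The call of 4-fold thus rests on repeat 1, and without it the value was 1.88.

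KLF5 had 51.4 FPKM in the parental input against 26.0 and 24.1 FPKM in the RIPs, 50.6% and 46.9% of the input. Its enrichment was 1.65 and 1.62 (1.64 ± 0.03, SD, n = 2), the closest pair of repeats among the 9. KLF5 lay below 4-fold on the FPKM scale, and above it when 1 transcript length was used for the gene in all libraries (2.28) or when libraries were rescaled without mitochondrial genes (2.44, with KLF7 at 2.77).

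KLF10 had 16.4 FPKM in the parental input against 7.95 and 4.35 FPKM in the RIPs. Its enrichment was 1.65 and 0.98 (1.31 ± 0.48, SD, n = 2). In repeat 1 it stood within 0.01 of KLF5 and in repeat 2 it stood 0.64 below, so these neighbours in the order were not separated in both repeats. Against the FLAG-CBFB cell input, where KLF10 was higher, its value was 0.08.

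The other 6 lay within 2-fold of the average gene on the FPKM scale. On log2 CPM with TMM factors KLF3 (1.17) and KLF16 (1.18) exceeded 2-fold, whereas KLF4, KLF6, KLF9 and KLF13 did not. KLF3 had 7.26 FPKM in the input and 1.35 and 0.98 in the RIPs (enrichment 0.71 ± 0.13, SD, n = 2). KLF16 had 14.8 FPKM in the input and 2.33 and 2.49 in the RIPs (0.43 ± 0.10). KLF4, at 7.99 FPKM in the input and 0.68 and 0.33 in the RIPs, was at 0.06 ± 0.19, and its sign differed between the repeats.

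KLF13, from 39.0 FPKM to 5.68 and 3.65, was at -0.20 ± 0.32, also with opposite signs in the repeats. KLF6, from 39.7 FPKM to 3.89 and 2.93, was the lowest at -0.57 ± 0.17. This last place depends on the pseudocount of 1 FPKM, with which KLF3, KLF4, KLF7 and KLF9 could not have fallen that low. With a pseudocount of 0.1, KLF9 (-0.37) and KLF4 (-0.36) lay below KLF6 (-0.08). The signs of KLF4, KLF13 and KLF6 changed with the scaling. KLF4 was at -0.29 and KLF13 at 0.42 after rescaling without mitochondrial genes, and KLF6 was at 0.11 on log2 CPM with TMM factors. Without centring all 9 lay below 0 in both RIPs, with KLF7 highest at -0.42 for hnRNPK and -0.94 for CBFB.

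KLF9 had 4.55 FPKM in the input and only 0.29 and 0.18 FPKM in the RIPs, 6.37% and 3.96% of the input, yet its enrichment was 0.50 and 0.45. The pseudocount of 1 FPKM sets this value. A gene at that input level which is listed at 0 in both RIPs would still reach 0.17 after centring, and 21.8% of all analysed genes cannot fall below 0 for the same reason. With a pseudocount of 0.1 the value of KLF9 was -0.37. The corresponding lowest values were -0.40 for KLF3, -0.51 for KLF7 and -0.52 for KLF4. The 7.66 and 4.12 FPKM of KLF7 are well above that limit.

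**Figure D2:**
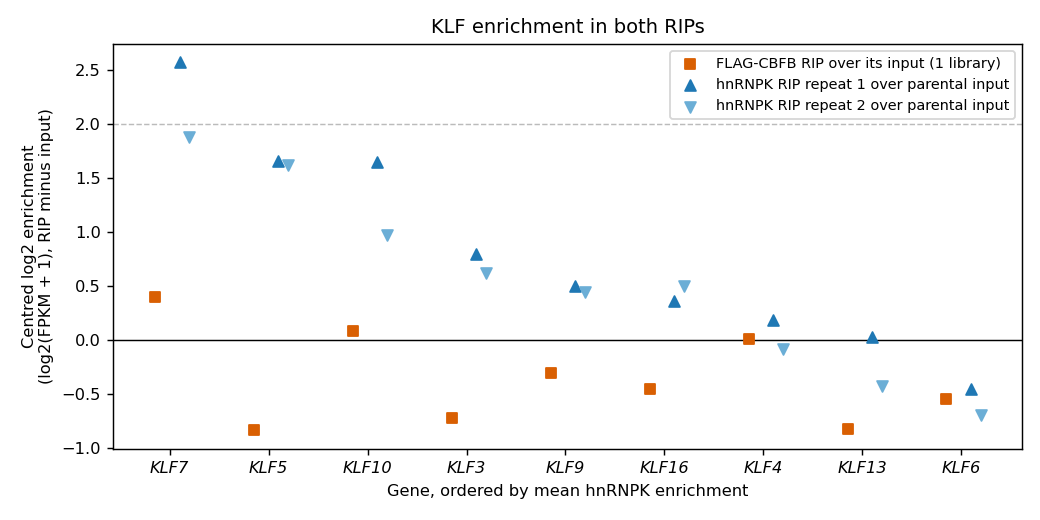
Centred log2 enrichment of the 9 analysed KLF mRNAs in FLAG-CBFB RIP (squares, 1 library) and in each hnRNPK RIP repeat (triangles), with 0 as the average gene and a dashed line at 4-fold. KLF7, KLF5 and KLF10 lead in hnRNPK RIP, only KLF7 in repeat 1 crosses 4-fold, and every FLAG-CBFB value lies at or below 0.40.

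The repeats allowed a test on the expected counts for hnRNPK. By edgeR's quasi-likelihood test (Benjamini-Hochberg over the 11764 genes), 6 of the 9 KLF mRNAs were higher in the RIPs than in the parental input at an adjusted p under 0.05, where 24.6% of all genes were, and 0 were lower, where 14.3% were. None of the 9 was lower at an unadjusted p under 0.05 either, by edgeR or by DESeq2. With a log2 fold change above 2 required as well, 3 of 9 were called, against 15.3% of all genes. The median log2 fold change over all genes was -0.10, and that of the 9 was 1.31.

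KLF7 rose most, from 2845 expected counts in the parental input to 5812 and 2822 in the RIPs, a log2 fold change of 4.05 (SE 0.43, edgeR adjusted p = 5.4e-07). KLF5 went from 6225 to 7707 and 6192 counts, with a log2 fold change of 3.66 (SE 0.38, edgeR adjusted p = 4.0e-07). KLF10 went from 3372 to 2411 and 1159 counts, with 2.53 (SE 0.41, edgeR adjusted p = 6.9e-05). The raw counts of the RIPs include the mitochondrial shares given above, which the scaling factors take up. These log2 fold changes exceed the enrichments on the FPKM scale, from which they differ in pseudocount, scaling and the use of transcript length.

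KLF16 (1.32, SE 0.37), KLF3 (1.31, SE 0.36) and KLF13 (0.99, SE 0.36) rose by less, with edgeR adjusted p of 0.0087, 0.0084 and 0.037. The calls of KLF3 and KLF13 did not pass against the FLAG-CBFB cell input (edgeR adjusted p = 0.44 and 0.68), whereas KLF7, KLF5, KLF10 and KLF16 passed there too. KLF3, KLF13 and KLF16 also missed the threshold when every gene with at least 1 count was fitted (edgeR adjusted p = 0.060, 0.26 and 0.056), and KLF13 when all 5 libraries were fitted together (edgeR adjusted p = 0.052). KLF6 (0.25, SE 0.35), KLF4 (-0.05, SE 0.43) and KLF9 (-0.32, SE 0.40) did not pass, with edgeR adjusted p of 0.60, 0.94 and 0.56.

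Both references framed these values. RUNX1 had an enrichment of 3.09 in hnRNPK RIP, with 10.4 FPKM in parental cells before RIP against 17.3 and 12.2 after it. All 9 KLF mRNAs lay below it, with KLF7 at -0.86 relative to it. GAPDH fell to -2.69, and all 9 KLF mRNAs lay above it, by 2.11 for KLF6 to 4.91 for KLF7. For 7 of the 9 this position is fixed by the pseudocount, since only KLF5 and KLF6 were abundant enough in the input to fall below GAPDH at all on the FPKM scale. On the counts, the edgeR log2 fold change of GAPDH was -1.39, and the lowest among the 9 was the -0.32 of KLF9.

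Set side by side, the enrichment with hnRNPK exceeded that with CBFB in both repeats for 7 of the 9 KLF mRNAs, against 50.1% of all genes. This count depends on the scaling and the input: it was 5 against the opposite inputs, where 47.5% of genes did so, 2 without centring, where 7.82% did, and 3 with libraries set to an equal arithmetic mean, where 12.2% did. With every gene in the tables in the centring it was 3 where 78.02% of genes did, so there the members lay below the share of all genes instead of above it. In the main setting the pseudocount fixed KLF3 and KLF9 among the 7. Listed at 0 in both RIPs of hnRNPK, they would still reach -0.40 and 0.17, above their CBFB values of -0.72 and -0.31. The share of all genes fixed in this way was not computed. The widest gap was that of KLF5, at -0.83 with CBFB and 1.65 and 1.62 with hnRNPK. KLF7 had 0.40 with CBFB and 2.57 and 1.88 with hnRNPK. The exceptions were KLF6, where CBFB (-0.55) lay between the hnRNPK repeats (-0.45 and -0.69), and KLF4, where CBFB (0.02) also did (0.19 and -0.08). No member exceeded 4-fold in both RIPs, where 3.79% of all genes did. Antibody, tag, cell line and protein differ together between these RIPs, so their parts cannot be told apart.

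The tables also give the mean transcript length of each gene, weighted by the estimated abundance of its isoforms. KLF7 had the longest transcripts of the 9 in the RIPs. Its mean length was 5323 nt in the parental input against 7535 and 7745 nt in RIPs of hnRNPK, 1.42 and 1.45 times as long, and it was 6367 nt in the FLAG-CBFB cell input and 7801 nt in FLAG-CBFB RIP, 1.23 times as long. Of 7613 genes with at least 100 counts in every library, 5.90% were over 1.4 times as long in both hnRNPK RIPs, and 6.23% were over 1.2 times as long in FLAG-CBFB RIP. All 3 RIPs of KLF7 lay above both inputs. GENCODE lists 8 protein-coding transcripts of KLF7 of 539 to 8362 nt, of which the longest pair, 8362 and 7954 nt, are near the means in the RIPs.

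KLF5 had a mean length of 1898 nt in the parental input against 3047 and 3013 nt in RIPs of hnRNPK, 1.61 and 1.59 times as long, where 4.05% of genes were over 1.5 times as long in both. Here the parental input was the library that stood apart. The FLAG-CBFB cell input had 3122 nt, 1.65 times the parental value, where 3.36% of genes exceeded 1.5, and FLAG-CBFB RIP had 3511 nt. GENCODE lists protein-coding transcripts of 2951 and 3566 nt for KLF5, and 3 processed transcripts of 130 to 984 nt. Since FPKM divides by this length, the parental FPKM of KLF5 is raised by its short mean. The test on counts above does not divide by length, so it makes no correction for transcripts that differ in length between libraries.

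KLF13 was shorter in FLAG-CBFB RIP alone, at 2457 nt against 3679 nt in its input, with 3203 nt in parental cells and 3456 and 3379 nt in RIPs of hnRNPK. KLF9, with 1 listed transcript, had the same length in every library. KLF10 varied by less than 1% from library to library in each comparison. KLF3 ran from 4786 to 5074 nt over the libraries, and KLF4 from 2441 to 2547 nt. With a single RIP, no spread is known for the KLF13 value, and the share of all genes shortened as much was not computed.

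**Figure D3:**
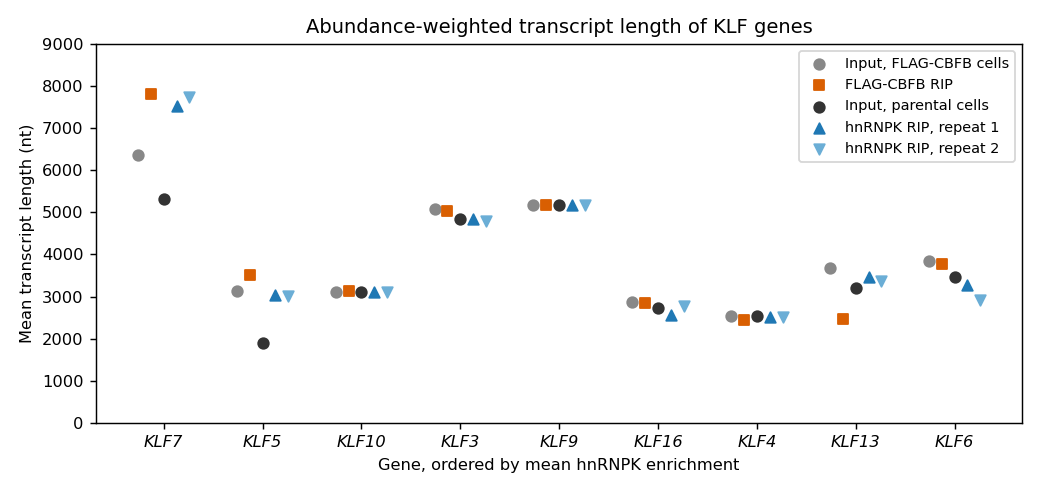
Mean transcript length in nt, weighted by isoform abundance, of the 9 analysed KLF genes in each of the 5 libraries. KLF7 is longer in all 3 RIPs than in both inputs, KLF5 is short in the parental input alone, and KLF13 is short in FLAG-CBFB RIP alone.

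hnRNPK is known to prefer runs of C, so the longest listed protein-coding transcript of each KLF gene was searched for CCCCC on the sense strand, merging overlapping matches into 1 run of 5 or more C. All 9 transcripts held such a run, as did 83.9% of 10553 transcripts of analysed genes searched in the same way, and 54.6% had one in the 3′ UTR. The median was 0.793 runs per kb. KLF7 held 8 runs, 0.957 per kb, at percentile 56.3 of all transcripts, and 4 of them were in its 3′ UTR of 7076 nt. KLF5 held 4 runs, 1.12 per kb, with none in the 3′ UTR. KLF10 held 8 runs, 2.19 per kb, of which 6 were in the 5′ UTR.

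KLF16 was the richest, with 18 runs, 6.23 per kb, at percentile 99.2 of all transcripts, and 13 of them were in its 3′ UTR. Its hnRNPK enrichment was 0.43, below the 2.23 of KLF7 and the 1.64 of KLF5. KLF7, KLF5 and KLF10 were above the median of 0.793 runs per kb too. So were KLF13 (1.90 per kb, enrichment -0.20), KLF4 (1.78 per kb, 0.06) and KLF6 (1.07 per kb, -0.57). A relation between run density and enrichment was not tested. KLF3 (0.781 per kb) and KLF9 (0.580 per kb) lay below the median. The transcript searched could be longer than the mean length in any library. It was 3659 nt against at most 3125 nt for KLF10, 6825 against at most 3679 nt for KLF13, and 4656 against at most 3842 nt for KLF6. Runs counted in it therefore need not all lie in the RNA that was measured. A run is a match of letters and no binding site was measured.

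The windows below show the runs themselves for the most enriched pair, KLF7 and KLF5, and for the gene with most runs, KLF16. Sequences are of the sense strand, 5′ to 3′, from GENCODE release 29 on GRCh38, with runs of 5 or more C in capitals. KLF7 lies on the minus strand at chr2:207074137-207167267, and both of its windows are in the 3′ UTR in exon 4 of 4, at chr2:207075461-207075490 (its longest run) and chr2:207075672-207075700 (a pair of runs). KLF5 lies on the plus strand at chr13:73054976-73077542, and its windows are in the 5′ UTR in exon 1 of 4 (chr13:73058949-73058977, its longest run) and in the coding sequence in exon 2 (chr13:73062488-73062516). KLF16 lies on the minus strand at chr19:1852399-1863568, and its windows are in the 3′ UTR in exon 2 of 2, at chr19:1854183-1854211 (its longest run) and chr19:1854129-1854158 (a pair of runs).
KLF7 3′ UTR, longest run: ccttccccgcctCCCCCCgtcacattctct
KLF7 3′ UTR, pair: cctttccacaagCCCCCacccgCCCCCgc
KLF5 5′ UTR, longest run: atcgggccccgCCCCCCCggagttgggtg
KLF5 coding: gccacttactttCCCCCgtcaccaccaag
KLF16 3′ UTR, longest run: gtgcaacggggCCCCCCCagggcagctag
KLF16 3′ UTR, pair: caCCCCCtgctgCCCCCCtcccggggtggg

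The other KLF and SP genes gave a reference for the family. Of 17 such genes, 15 were found in the tables by name and 6 passed the expression filter (KLF8, KLF11, KLF12, SP1, SP2 and SP3). In FLAG-CBFB RIP 1 of these 6 exceeded 4-fold (4.37% of all genes) and in hnRNPK RIP 2 did (8.20% of all genes), and edgeR called 4 of 6 in hnRNPK RIP (15.3% of all genes).

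SP2, a zinc finger factor of the same superfamily, was the family member above 4-fold with both proteins. It rose from 5.62 FPKM in the FLAG-CBFB cell input to 32.4 in the RIP. In parental cells it went from 5.00 FPKM to 28.5 and 25.7 in RIPs of hnRNPK. Its enrichment was 3.67 with CBFB and 4.91 and 4.83 with hnRNPK, above RUNX1 in both, and its log2 fold change by edgeR was 6.41 (SE 0.44). SP2 and RUNX1 had more FPKM in the RIPs than in the inputs, which no analysed KLF mRNA did. Its longest transcript held 13 runs of C, 4.18 per kb, of which 9 were coding and 4 in the 3′ UTR. The longest run of the 3′ UTR, in exon 7 of 7 on the plus strand at chr17:47928153-47928182, was in this window.
SP2 3′ UTR: agtgagcccctaCCCCCCaccccgatcccc

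SP1, the founding GC-box-binding activator, was at -0.49 with CBFB and 2.52 and 1.58 with hnRNPK (edgeR log2 fold change 3.26, SE 0.41). With a mean of 2.05 it was the other family gene above 4-fold with hnRNPK, and only repeat 1 exceeded that threshold. Its FPKM was 17.3 in the parental input against 16.2 and 7.50 in the RIPs, and like KLF7 it was more abundant in repeat 1. KLF12, a repressor, was at 0.20 with CBFB and 1.70 and 1.68 with hnRNPK (edgeR 2.76, SE 0.39). It had only 1.87 FPKM in the parental input, so the pseudocount of 1 FPKM limits how low its hnRNPK enrichment could fall. KLF8 was at -0.30 with CBFB and at 1.08 and 0.69 with hnRNPK (edgeR 2.04, SE 0.44). KLF11, the close paralog of KLF10, was at 1.32 and 1.22 with hnRNPK, but it had only 2.22 FPKM in the input, and its edgeR log2 fold change of 0.83 (SE 0.47) did not pass. SP3 was at -0.74 with CBFB and -0.64 and -0.83 with hnRNPK, close to KLF6. Repeat 1 was the higher one for all 6 of these genes and for 8 of the 9 KLF mRNAs, where it was for 5846 of the 11764 genes.

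**Figure D4:**
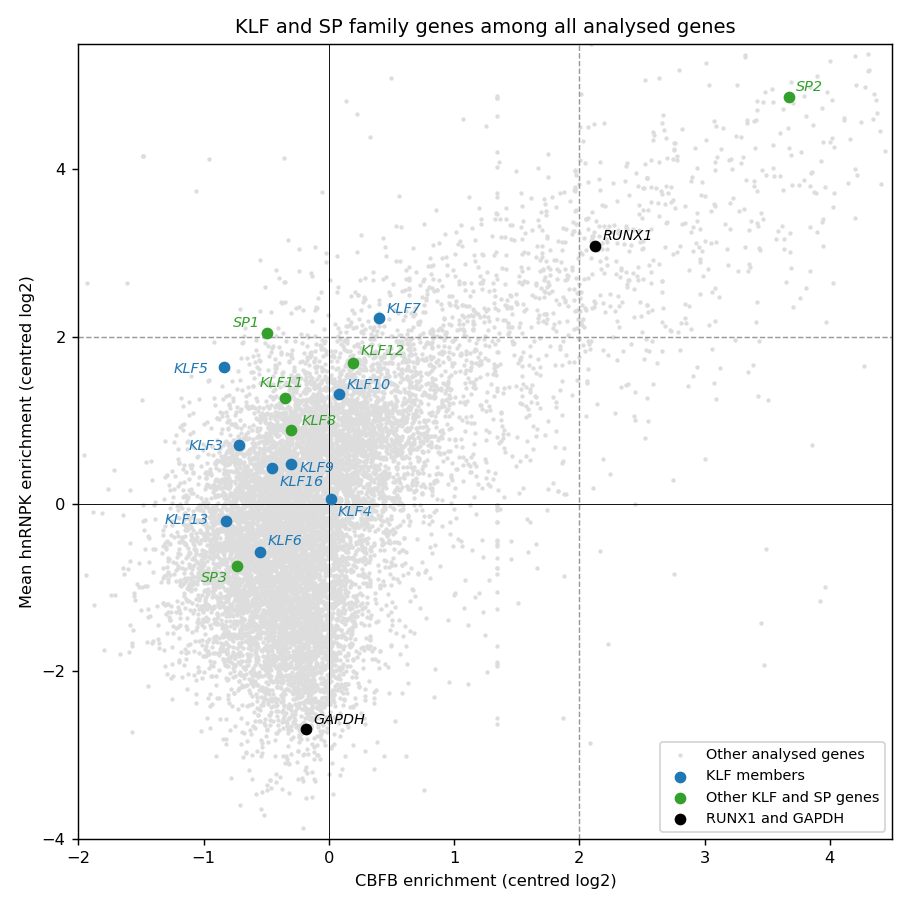
Enrichment with CBFB (x axis) against mean enrichment with hnRNPK (y axis), both as centred log2 ratios, for the 9 KLF mRNAs (blue), 6 other KLF and SP genes (green), RUNX1 and GAPDH (black) and the other analysed genes (grey), with dashed lines at 4-fold. 88 of the 11764 genes lie outside the plotted range. The KLF mRNAs lie left of 1 on the x axis, while SP2 lies beyond both lines.

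Transcripts of proteins that act with the KLF factors were examined as lists. For comparison, 4.37% of all genes exceeded 4-fold with CBFB and 8.20% with hnRNPK, and edgeR placed 24.6% of all genes higher and 14.3% lower with hnRNPK. Of 6 corepressors, 0 exceeded 4-fold in either RIP, and with hnRNPK edgeR placed 2 higher and 1 lower at an adjusted p under 0.05. Those higher were SIN3A (log2 fold change 2.59) and SIN3B (1.12), scaffolds of a histone deacetylase complex, and the lower one was HDAC1 (-1.20), a deacetylase of that complex. They are named after their values were seen, and 2 of 6 and 1 of 6 lie near the shares of all genes. Of 3 coactivators, EP300, an acetyltransferase that acetylates KLF5 and other KLF proteins, exceeded 4-fold with hnRNPK alone. It had 3.86 FPKM in the parental input against 4.40 and 3.62 in the RIPs, for an enrichment of 2.76 and 2.61, and it was at 1.23 with CBFB. By edgeR, 2 of the 3 were higher with hnRNPK. None of the 4 ubiquitin ligases, which include WWP1 and FBXW7 that target KLF5, exceeded 4-fold in either RIP, and 2 of them passed the edgeR test as higher with hnRNPK.

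The list of upstream regulators held transcripts more enriched than any KLF mRNA. Of its 11 genes 10 were analysed, of which 2 exceeded 4-fold with CBFB (4.37% of all genes) and 3 with hnRNPK (8.20%), and 6 were higher with hnRNPK by edgeR (24.6%). MAP2K5, the kinase that activates ERK5, was at 2.71 with CBFB and 4.13 and 3.30 with hnRNPK. MAPK7, which encodes ERK5 itself, was at 2.94 with CBFB and 3.56 and 3.19 with hnRNPK. MEF2D, a transcription factor that ERK5 phosphorylates, was at 1.68 with CBFB and 3.04 and 2.81 with hnRNPK. This kinase cascade is known for inducing KLF2 and KLF4, of which KLF2 was below the expression filter here and KLF4 stood at the average in both RIPs.

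Of 5 target genes of KLF factors, 1 exceeded 4-fold with hnRNPK (8.20% of all genes) and 0 with CBFB (4.37%), and 2 were higher with hnRNPK by edgeR (24.6%). The gene above 4-fold was CDKN1A, the cell cycle inhibitor p21 that KLF4 and KLF6 activate, with 57.4 FPKM in the parental input against 55.5 and 37.9 in RIPs of hnRNPK. Its enrichment was 2.56 and 2.09 with hnRNPK and 1.58 with CBFB. These lists are short and were chosen with earlier results of these data known, so their counts describe the genes named and no more.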

How the data were processed

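The 5 libraries were assigned to groups by their titles. Per the labels, libraries were prepared with a TruSeq mRNA kit, and the submitters' processing notes name Trimmomatic, STAR, RSEM and hg19, without versions. The annotation release was not given in the sources used here. Expected counts, as deposited, are estimated by RSEM for each gene, and a read that matches several genes is split between them. The deposited FPKM values are those counts per kilobase of effective transcript length scaled to the fragments of the library. The deposited mean transcript length, in nt, is weighted by isoform abundance.

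Gene names came from a table of gene names and GENCODE 29, for 50276 of 56632 identifiers directly and 640 through their transcripts. Coordinates are those of GENCODE 29 on GRCh38, since the tables hold none. The KLF members and all gene lists were chosen with earlier results of these data known. All 10 members, each other KLF or SP gene that passed the expression filter, and each listed partner, regulator or target beyond 4-fold in either RIP were named.

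Enrichment was the difference in log2(FPKM + 1) between RIP and input, centred on its mean over 11764 genes (mean FPKM of 1 or more in the 5 libraries). Such fold changes understate changes of weakly expressed genes. Expected counts were rounded and tested with edgeR 4.0.16 (R 4.3.3, quasi-likelihood, TMM, hnRNPK repeats against parental input), with DESeq2 1.42.0 as an alternative. The edgeR script was tested on simulated data, which checks the code and not how the test performs on these libraries. The repeats differed by more than counting noise (chi-square 89.5 per degree of freedom). Depth was 69786576 to 106855647 counts per library, and intervals cover counting error only. Alternatives were another pseudocount, centring, scaling, expression filter, threshold, input and transcript length, and leaving out a repeat. The alternative with 1 transcript length per gene was chosen after seeing the data.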

Additional observations from a re-analysis of the deposited data

Results flagged for a closer look

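For 4 of the KLF mRNAs the single FLAG-CBFB value and both hnRNPK repeats lay on opposite sides of the average gene. KLF5 was at -0.83 with CBFB and at 1.65 and 1.62 with hnRNPK. KLF3 was at -0.72 with CBFB and at 0.80 and 0.62 with hnRNPK. KLF16 was at -0.45 with CBFB and at 0.36 and 0.50 with hnRNPK. KLF9 was at -0.31 with CBFB and at 0.50 and 0.45 with hnRNPK, where its lowest possible value was 0.17. The difference was not tested for any of them. The signs also depend on the input and the scaling. With the inputs exchanged, KLF3 reversed to 0.24 with CBFB and -0.25 with hnRNPK, beside a difference of 0.95 between its inputs, and KLF9 was above 0 with both (0.036 and 0.13). With a pseudocount of 0.1 KLF9 was below 0 with both (-0.64 and -0.37). KLF5 and KLF16 kept these signs under every alternative except no centring, an equal arithmetic mean and centring over every gene, where 0 of the members had opposite signs.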

How the results depend on the processing

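No KLF mRNA exceeded 4-fold with CBFB, or with both proteins, under any alternative tried. For hnRNPK the count of 1 changed with most settings. The share of all genes above the threshold, 8.20% in the main setting, moved as well and is given in brackets. The count was 2 (KLF5 and KLF7) with a pseudocount of 0.1 (11.6%) and after rescaling without mitochondrial genes (9.95%). It was also 2 with an FPKM filter of 5 (7 members analysed, 10.5%) and with 1 transcript length per gene (8.34%). It was 3 (with KLF10) on log2 CPM with TMM factors (14.4%) or DESeq2 size factors (15.6%) and at a 2-fold threshold (20.9%). It was 0 without centring (0.76%), with libraries set to an equal arithmetic mean (0.31%) and with every gene in the centring (0.33%). It was also 0 against the opposite input (8.64%) and when both repeats had to pass (7.31%), and 0 to 1 when a repeat was left out. KLF7 turned to -0.42 without centring and -1.16 with an equal arithmetic mean. KLF7 and KLF5 nevertheless ranked at the top and next to it with hnRNPK under all 12 settings, and KLF10 followed under 11. The count of members more than 2-fold apart between inputs was 2 instead of 1 with a pseudocount of 0.1, an equal arithmetic mean and TMM factors. The edgeR count of 3 (15.3% of all genes) became 5 at a log2 fold change above 1 and was 2 against the opposite input. It stayed at 3 by fold alone, with no test, without either repeat. The share of all genes was not computed for these edgeR alternatives or for those of the inputs. The uncalled log2 fold change of KLF4 turned to 0.022 with DESeq2 and 0.025 with DESeq2 size factors and to 0.50 against the opposite input, and that of KLF6 to -0.15 with all genes and -0.18 against the opposite input. The causes were not tested.

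No paired analysis was possible because the inputs carry no repeat numbers and both hnRNPK repeats share 1 input.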
